A study of Mus musculus with 15 samples.

Results

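The endothelial marker genes described here are 9 genes by which the cells lining blood vessels are recognised: the co-receptor gene Eng, the clotting factor gene Vwf, the receptor tyrosine kinase genes Tie1, Tek, Kdr and Flt1, the junction genes Cdh5 and Pecam1, and the sialomucin gene Emcn. Members were the probe sets that the platform annotation maps to 1 of these symbols and to no other gene. This gave 14 of the 12422 probe sets of the array and 9 of the 8251 genes that have such a probe set. A probe set is a group of short probes against 1 transcript, and its value is an intensity on a linear scale.

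Heart RNA from mice was measured on 15 one-colour arrays in 4 groups. CKO hearts (αMHC-Cre+/0; MAT1F/F) gave 5 arrays at 4 weeks of age, and control littermates (αMHC-Cre+/0; MAT1F/+) gave 3. At 2 weeks, 4 CKO arrays stood against 3 control arrays. Mnat1 encodes MAT1, a subunit that assembles the kinase module of transcription factor TFIIH, and the series asked how its loss from heart muscle changes gene expression. Every mouse carried Cre under the alpha-myosin heavy chain promoter, which is active in heart muscle cells, so recombination was not directed at the endothelial cells in which the 9 genes are mainly expressed. The controls kept 1 wild-type and 1 floxed Mnat1 allele. Whether each array of a group is from a different mouse is not in the labels, so the p-values may measure technical spread. By Xist and Uty levels, every group held arrays read as female and arrays read as male. If these readings hold, each group drew on more than 1 mouse.

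Endothelial cells form the inner layer of all vessels and of the heart chambers. VEGF ligands act through Kdr, the main signalling VEGF receptor, while Flt1 binds VEGF strongly and limits its action on Kdr. Angiopoietins act through Tek, and Tie1 is its related partner that modulates it. Eng presents TGF-beta and BMP ligands to the endothelial receptor Acvrl1. Cdh5 and Pecam1 hold neighbouring endothelial cells together, Emcn coats the surface of capillaries and veins, and Vwf is stored in endothelial granules and captures platelets. In heart RNA, fewer endothelial cells and less RNA of a gene per endothelial cell cannot be told apart.

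When arrays were clustered on the correlation of all their probe sets, 2 sets of 6 and 9 arrays separated, with r of at least 0.937 within a set and at most 0.924 between sets. The labels do not mention these array sets, and each held arrays of all 4 groups. At each age, array set 1 held 2 CKO arrays and 1 control array, and array set 2 held the rest. Array medians ran from 173.7 to 216.8. Each comparison is therefore given without the array set, with it as a block, and inside each set alone. The 2 Mnat1 probe sets were dim, and over all arrays their ranges overlapped between CKO and control hearts. The brighter read 140.7 to 314.3 in CKO and 85.96 to 243.8 in control hearts at 4 weeks, and 73.12 to 296.3 in CKO and 87.89 to 255.0 in control hearts at 2 weeks. Inside either array set it lay higher in CKO hearts at 4 weeks. There it read 300.3 and 314.3 against 243.8 in set 1, and 147.6, 140.7 and 149.4 against 106.3 and 85.96 in set 2. At 2 weeks it overlapped inside both sets. The dimmer read 38.92 to 78.34 in CKO and 40.07 to 79.2 in control hearts at 4 weeks, and 23.67 to 52.03 in CKO and 41.4 to 86.25 in control hearts at 2 weeks. Inside either array set the dimmer lay lower in CKO hearts at 2 weeks. It read 52.03 and 33.89 against 86.25 in set 1, and 32.51 and 23.67 against 43.04 and 41.4 in set 2. At 4 weeks it overlapped inside set 2. The labels do not place these probes relative to the deleted part, so they check nothing about the deletion. As a check of tissue, the 10 cardiomyocyte markers summed to between 64432 and 81578 on every array.

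Promoters of Eng, Tie1 and Kdr are shown because endothelial promoters are known for sites of ETS family transcription factors, whose core letters are GGAA. The letters marked are GGAAG, a longer form of this core. In the 4-week comparison Eng passed the test without the block, and Tie1 and Vwf passed in the blocked fit. Kdr passed in neither of these fits, only inside array set 2. Vwf had no promoter to show. The sequences are from RefSeq on build GRCm38.p6, cover the 250 bases before the start of the transcript, and are written 5′ to 3′ on the gene's strand. They are Eng at chr2:32646345-32646594 on the plus strand, Tie1 at chr4:118489850-118490099 on the minus strand and Kdr at chr5:75978456-75978705 on the minus strand. The window of Kdr, and that of Flt1 counted below, lies inside the annotated span of the gene. Those of Tek and Emcn lie partly inside it. The transcript start used for these genes is therefore not the outer end of the annotated span. Capitals mark GGAAG or, for the other strand, CTTCC. Other copies of the core GGAA are left unmarked, so the marks do not show every ETS core.
Eng: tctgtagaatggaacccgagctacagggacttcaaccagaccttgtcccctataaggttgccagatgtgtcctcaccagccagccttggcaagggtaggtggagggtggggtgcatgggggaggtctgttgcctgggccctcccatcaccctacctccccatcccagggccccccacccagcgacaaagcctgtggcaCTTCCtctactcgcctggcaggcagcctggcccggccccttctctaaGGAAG
Tie1: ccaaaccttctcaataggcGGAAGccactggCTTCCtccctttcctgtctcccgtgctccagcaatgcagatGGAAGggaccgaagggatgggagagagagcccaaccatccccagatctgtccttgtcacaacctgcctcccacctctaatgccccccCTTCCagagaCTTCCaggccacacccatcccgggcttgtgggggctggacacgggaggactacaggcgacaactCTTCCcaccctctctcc
Kdr: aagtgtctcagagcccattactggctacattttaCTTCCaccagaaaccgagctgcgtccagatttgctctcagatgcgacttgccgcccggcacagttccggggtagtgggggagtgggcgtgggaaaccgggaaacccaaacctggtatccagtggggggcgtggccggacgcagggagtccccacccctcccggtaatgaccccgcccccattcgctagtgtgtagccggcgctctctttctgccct
The RefSeq table held promoters for 6 of the 9 genes. The GGAAG letters, counted on both strands, occurred 6 times in Tie1, 3 times in Flt1, 2 times each in Eng and Emcn, 1 time in Kdr and 0 times in Tek. At least 1 copy was present in 64.1% of all 32851 promoters of this length. The letters CAGGAA, a variant of the ETS core that shares GGAA with the first motif, were found in Tek, Emcn and Tie1 and in 25.7% of all promoters. The GATA-type letters AGATAA were in none of these 6 and in 9.99% of all promoters. These are letter matches in the window only. Vwf, Cdh5 and Pecam1 are named without a promoter.

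The gene annotation of the same build places Eng on chromosome 2, Emcn on 3, Tek and Tie1 on 4, Kdr and Flt1 on 5, Vwf on 6, Cdh5 on 8 and Pecam1 on 11. Emcn had 3 probe sets, and Tie1, Flt1 and Vwf had 2 each. Every gene is represented below by its probe set with the highest mean. Pecam1, with a mean intensity of 183.0, lay just under the limit of 183.8 below which genes were left out as dim, so 8 of the 9 genes were among the 4950 tested. None of the 14 probe sets lay at the floor value on any array. A gene is called where its adjusted p in limma is under 0.05, differences are on the log2(intensity + 16) scale and errors beside them are standard errors of the fit, unless SD is written.

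**Figure D1:**
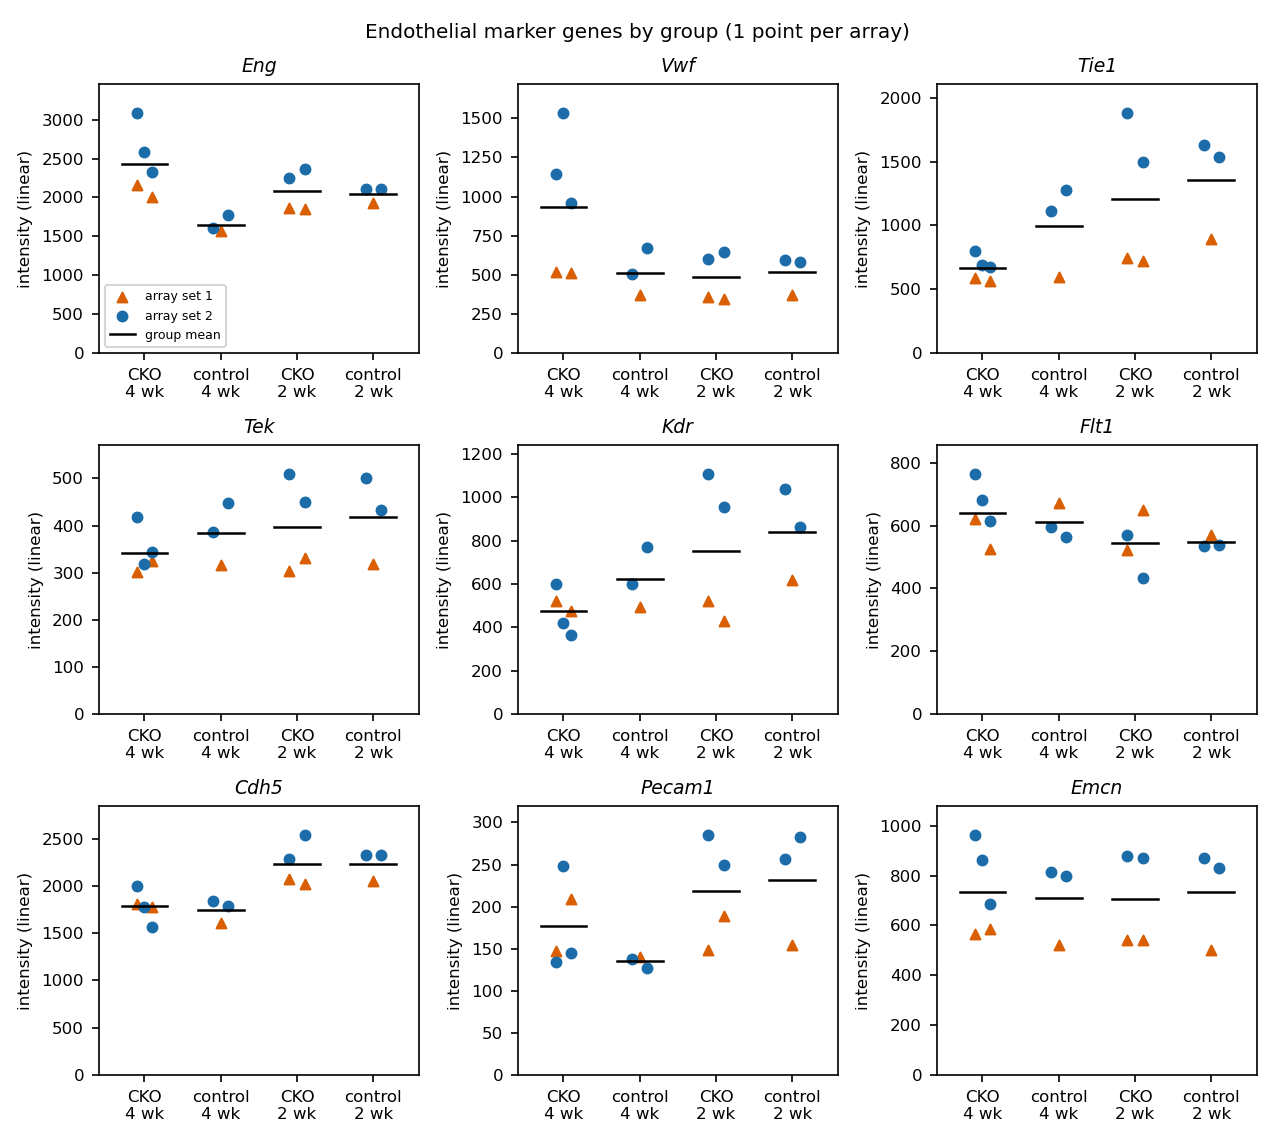
Intensity of the 9 endothelial marker genes on a linear axis, 1 point per array, in CKO and control hearts at 4 and at 2 weeks. Triangles are array set 1, circles array set 2 and bars the group mean. In Eng all 5 CKO arrays at 4 weeks, from 2001 to 3082, lie above the 3 control arrays, which reach 1778. In Tie1 and Vwf the 2 array sets lie apart within most groups.

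The comparison of CKO with control hearts at 4 weeks asks what the endothelial genes do when heart muscle has lost MAT1. Eng was higher in CKO hearts, while Cdh5, Emcn, Flt1 and Tek differed by 0.16 or less in log2 terms. Vwf and Tie1 missed the test without the array set, while with it as a block Vwf was higher and Tie1 lower. Of the 8 tested genes, 1 (Eng) was called, higher in CKO hearts, against 11.2% of all 4950 genes called in this comparison. With the array set as a block 3 of 8 were called, 2 higher and 1 lower, against 35.5% of all genes, which is near the background share. The median difference of the 8 was 0.03, and that of all tested genes 0.08. After quantile normalization the medians were -0.07 and -0.0046.

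Eng encodes endoglin, a co-receptor for TGF-beta and BMP ligands that is also made by some activated fibroblasts. Its intensity in CKO hearts at 4 weeks was 2161, 2001, 3082, 2586 and 2329, against 1568, 1610 and 1778 in control hearts. Every CKO array lay above every control array. The means were 2432 ± 423 (SD, n = 5) in CKO and 1652 ± 111 (SD, n = 3) in control hearts. The difference of Eng was 0.54 ± 0.14, a 1.45-fold higher level, with an adjusted p of 0.0198. With the array set as a block it was 0.56 ± 0.09 with an adjusted p of 0.00011. Within array set 1, which holds 1 control array at this age, it was 0.40. Within array set 2 it was 0.64 and called. Without the block, the call was lost on leaving out control replicate 1 (adjusted p 0.0615) or control replicate 2 (0.0847). Median scaling gave an Eng difference of 0.46 with an adjusted p of 0.233, and a replicate block gave 0.56 with an adjusted p of 0.104.

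Vwf encodes von Willebrand factor, which is made by endothelium and megakaryocytes, most of all in veins and the lining of the heart chambers. Its intensity in CKO hearts at 4 weeks was 518, 515, 1144, 1532 and 959, against 371, 503 and 669 in control hearts. The 3 high CKO arrays all belong to array set 2, and the groups overlapped over all arrays. Within array set 1 both CKO arrays, at 518 and 515, lay above the control array at 371. Within array set 2 the 3 CKO arrays lay above both control arrays, at 503 and 669. The difference of Vwf was 0.75 ± 0.36 with an adjusted p of 0.234 without the block and 0.81 ± 0.15, a 1.75-fold higher level, with an adjusted p of 0.000581 with it. It was 0.46 within array set 1, with its 1 control array, and 1.02 within array set 2, where it was called. The call with the block held on leaving out each of the 8 arrays in turn, with adjusted p-values up to 0.00665. The platelet and megakaryocyte list, which could share Vwf, had 0 of 2 tested genes called without the block, against 11.2% of all genes. With the block 1 was called, against 35.5% of all genes. This was Itgb3, which was lower at -0.34 ± 0.13 (adjusted p 0.0486). The 5 measured genes of the list summed to between 1017 and 1432 in CKO and between 1019 and 1562 in control hearts. The part of this list in the Vwf result was not tested.

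Tie1 encodes an orphan receptor that pairs with Tek. Its intensity in CKO hearts at 4 weeks was 588, 564, 802, 687 and 677, against 593, 1110 and 1279 in control hearts. The 2 control arrays of array set 2 lay above all CKO arrays, and the control array of array set 1 lay among them. The difference of Tie1 was -0.51 ± 0.34 with an adjusted p of 0.437 without the block and -0.46 ± 0.15 with an adjusted p of 0.0283 with it. It was -0.04 within array set 1 and -0.71 within array set 2. The effects on Tie1 in the array sets differed by -0.67 ± 0.20, with an adjusted p of 0.31. The call with the block was lost on leaving out control replicate 2 (adjusted p 0.0654), control replicate 3 (0.136), CKO replicate 4 (0.0675) or CKO replicate 5 (0.0641).

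Kdr, the main VEGF receptor of endothelium, read 523, 475, 601, 421 and 363 in CKO hearts at 4 weeks, against 495, 600 and 769 in control hearts. The groups overlapped. The difference of Kdr was -0.37 ± 0.29 with an adjusted p of 0.556, and with the block it was -0.34 ± 0.22 with an adjusted p of 0.259. Within array set 1 it was 0.01 and within array set 2 it was -0.57, called in set 2 with an adjusted p of 0.0475. The difference between the 2 sets in the Kdr effect was -0.58 ± 0.32 with an adjusted p of 0.698. Tek, the angiopoietin receptor, read 300, 324, 417, 318 and 343 in CKO hearts, against 316, 386 and 448 in control hearts. The difference of Tek was -0.16 ± 0.20 with an adjusted p of 0.759. Flt1 read 620, 525, 764, 683 and 614 in CKO hearts, against 673, 595 and 565 in control hearts, a difference of 0.06 ± 0.15 with an adjusted p of 0.903.

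Cdh5, which encodes VE-cadherin of endothelial junctions, read 1803, 1780, 1997, 1774 and 1570 in CKO hearts at 4 weeks, against 1605, 1843 and 1787 in control hearts. Its groups overlapped, and its difference was 0.03 ± 0.11 with an adjusted p of 0.936. Emcn, a surface sialomucin, averaged 732 ± 174 (SD, n = 5) in CKO and 711 ± 165 (SD, n = 3) in control hearts, a difference of 0.04 ± 0.26 with an adjusted p of 0.973. Pecam1, the adhesion molecule CD31, read 147, 209, 135, 248 and 145 in CKO hearts, against 140, 138 and 127 in control hearts. In CKO hearts 2 arrays were high for Pecam1, and the lowest lay within the control range. In the fit to all genes without the dim limit, the difference of Pecam1 was 0.32 ± 0.25 with an adjusted p of 0.613.

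**Figure D2:**
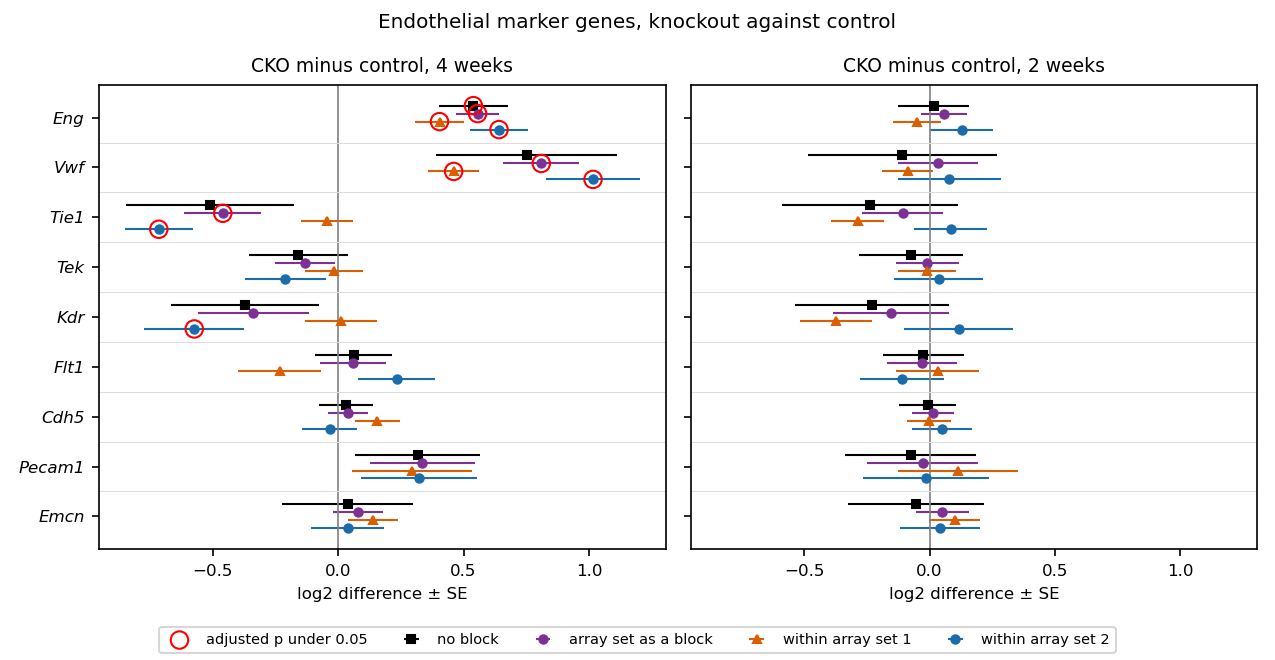
Log2 difference of CKO minus control hearts ± standard error for the 9 genes at 4 weeks (left) and 2 weeks (right), by the fit with no block, the fit blocked on array set, and the fits inside either array set. Red rings mark an adjusted p under 0.05 in limma. At 4 weeks Eng is ringed with no block, with the block and in array set 2. Vwf and Tie1 are ringed with the block and in array set 2, and Kdr in array set 2. Rings inside array set 1 are not read, as it holds 1 control array at each age. No gene is ringed at 2 weeks.

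At 2 weeks, none of the endothelial markers differed between CKO and control hearts by the test. In limma 0 of 8 genes were called without the block, against 0.0202% of all genes, and 0 of 8 with it, against 0.0808%. The differences without the block ran from -0.24 for Tie1 to 0.02 for Eng, and none of the 8 had an unadjusted p under 0.05, the lowest being 0.468 for Kdr. Within array set 1 alone, both CKO arrays of Tie1 and Kdr lay below the 1 control array, which gives no measure of the control spread. Eng read 2251, 2365, 1861 and 1850 in CKO hearts, against 2112, 2110 and 1924 in control hearts. Vwf read 599, 646, 359 and 343 in CKO hearts, against 593, 583 and 374 in control hearts. For both genes the low arrays of each group are those of array set 1, and the groups overlapped. Tie1 read 1878, 1497, 742 and 718 in CKO hearts, against 1628, 1537 and 894 in control hearts. Kdr read 1107, 955, 522 and 428 in CKO hearts, against 1038, 865 and 617 in control hearts. As with Eng and Vwf, the spread of Tie1 and Kdr within a group followed the array set. With the block, the differences were 0.06 ± 0.09 for Eng, 0.03 ± 0.16 for Vwf, -0.11 ± 0.16 for Tie1 and -0.15 ± 0.23 for Kdr.

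The next comparison asks whether the effect of the genotype differed between the ages. Without the block 0 of 8 genes were called in limma, against 1.56% of all genes, and 1 of the 8, Eng, had an unadjusted p under 0.05 (0.0194). With the array set as a block 2 of 8 were called, against 12.4% of all genes. The effect on Eng was greater at 4 than at 2 weeks by 0.52 ± 0.20 without the block (adjusted p 0.318) and by 0.50 ± 0.12 with it (adjusted p 0.0159). That on Vwf was greater by 0.86 ± 0.52 without the block (adjusted p 0.737) and by 0.78 ± 0.22 with it (adjusted p 0.0294). The call with the block was lost for Eng on leaving out control replicate 2 at 4 weeks (adjusted p 0.056) or control replicate 3 at 2 weeks (0.0577). For Vwf it was lost without control replicate 2 at 4 weeks (0.0969), without control replicate 1 (0.057) or 3 (0.0989) at 2 weeks, or without CKO replicate 1 at 2 weeks (0.0536). Tie1 had a difference of effects of -0.35 ± 0.22 with the block and an adjusted p of 0.354. It was called within array set 2 alone, at -0.80 with an adjusted p of 0.032. For the other 5 tested genes the difference of effects with the block ran from -0.19 for Kdr to 0.09 for Flt1.

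The age comparisons show where the endothelial genes stood at each age. In CKO hearts, Tie1, Kdr and Cdh5 were lower and Vwf higher at 4 than at 2 weeks with the array set as a block. Without the block 0 of 8 genes were called in limma, against 6.57% of all genes, although Cdh5, Tie1 and Vwf had unadjusted p-values under 0.05 (0.00674, 0.0315 and 0.0228). With the block 4 of 8 were called, 1 higher and 3 lower, against 25.1% of all genes. In control hearts 0 of 8 were called without the block, against 0.727% of all genes, and 1 of the 8, Cdh5, had an unadjusted p under 0.05 (0.0111). With the block 1 of 8 was called in control hearts, against 5.92%. The comparisons between genotypes and between ages share arrays, so these counts are not independent.

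Tie1 in CKO hearts read 588, 564, 802, 687 and 677 at 4 weeks, against 1878, 1497, 742 and 718 at 2 weeks. Within array set 1 both arrays at 4 weeks lay below both at 2 weeks, and the same held for the larger difference in array set 2. The difference of Tie1 was -0.74 ± 0.31 without the block (adjusted p 0.218) and -0.81 ± 0.14 with it (adjusted p 0.000501), a level 0.568 times that at 2 weeks. It was -0.33 within array set 1 and -1.20 within array set 2, called in both. The call with the block held on leaving out each of the 9 arrays, with adjusted p-values up to 0.00273. In control hearts Tie1 read 593, 1110 and 1279 at 4 weeks, against 1628, 1537 and 894 at 2 weeks, and its difference was -0.46 ± 0.17 with the block and an adjusted p of 0.143.

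Kdr in CKO hearts read 523, 475, 601, 421 and 363 at 4 weeks, against 1107, 955, 522 and 428 at 2 weeks. The 2 arrays of array set 2 at 2 weeks were high, and those of array set 1 lay within the range at 4 weeks. The difference of Kdr was -0.60 ± 0.20 with the block (adjusted p 0.0398), 0.07 within array set 1 and -1.16 within array set 2. The array sets differed in this Kdr effect by -1.23 ± 0.28, with an adjusted p of 0.073. The call with the block was lost without CKO replicate 4 (0.0926) or 5 (0.0873) at 4 weeks and without CKO replicate 1 (0.168) or 2 (0.13) at 2 weeks. In control hearts the difference of Kdr was -0.42 ± 0.25 with the block and an adjusted p of 0.384. Tek, the third of the kinase genes that were lower at 4 weeks, missed the threshold in CKO hearts, at -0.23 ± 0.11 with the block and an adjusted p of 0.147.

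Vwf in CKO hearts read 518, 515, 1144, 1532 and 959 at 4 weeks, against 599, 646, 359 and 343 at 2 weeks. In each array set, all arrays at 4 weeks lay above those at 2 weeks. The difference of Vwf was 0.76 ± 0.14 with the block (adjusted p 0.000775) and held its call on leaving out each array, with adjusted p-values up to 0.00404. In control hearts Vwf differed by -0.02 ± 0.17 between the ages, with an adjusted p of 0.97.

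Cdh5 in CKO hearts read 1803, 1780, 1997, 1774 and 1570 at 4 weeks, against 2281, 2535, 2073 and 2019 at 2 weeks. Control hearts read 1605, 1843 and 1787 at 4 weeks, against 2327, 2322 and 2049 at 2 weeks. In both genotypes every array at 4 weeks lay below every array at 2 weeks. The difference of Cdh5 with the block was -0.33 ± 0.07 in CKO hearts (adjusted p 0.00388) and -0.35 ± 0.09 in control hearts (adjusted p 0.0303). Without the block the adjusted p of Cdh5 was 0.079 in CKO hearts and 0.393 in control hearts. In control hearts the call with the block was lost without any 1 of the 6 arrays: without replicates 1, 2 and 3 at 4 weeks the adjusted p was 0.0713, 0.0697 and 0.101, and without replicates 1, 2 and 3 at 2 weeks it was 0.126, 0.0963 and 0.0636. In CKO hearts no single array removed it.

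Eng and Pecam1 had lower values at 4 than at 2 weeks in control hearts without passing the test. Eng in control hearts read 1568, 1610 and 1778 at 4 weeks, against 2112, 2110 and 1924 at 2 weeks, with no overlap. Its difference was -0.31 ± 0.10 with the block and an adjusted p of 0.0755. In CKO hearts that of Eng was 0.19 ± 0.08 with the block and an adjusted p of 0.0937, which was 0.0484 without CKO replicate 5 at 4 weeks. Pecam1 in control hearts read 140, 138 and 127 at 4 weeks, against 257, 283 and 154 at 2 weeks, also with no overlap. The difference of Pecam1, a gene under the dim limit, was -0.67 ± 0.23 with the block and an adjusted p of 0.142. It was -0.12 within array set 1, with 1 control array at each age, and -0.94 within array set 2. Flt1 and Emcn, with differences between -0.03 and 0.24, were called at neither genotype.

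**Figure D3:**
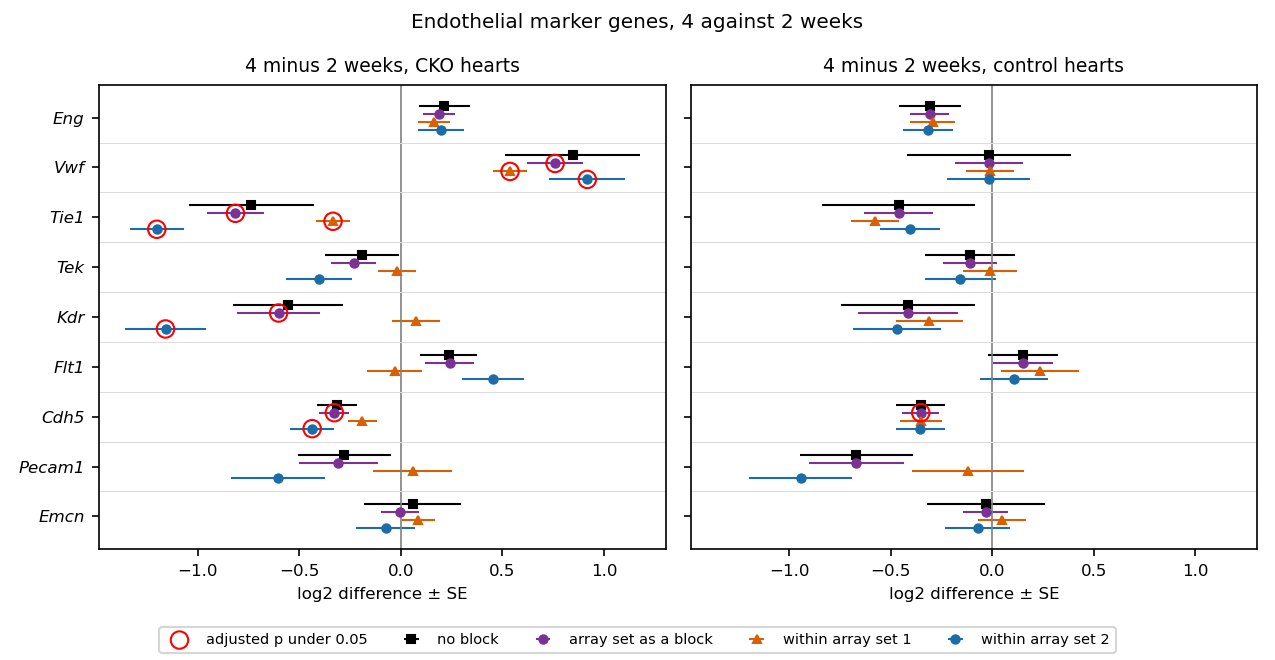
Log2 difference of 4 minus 2 weeks ± standard error for the 9 genes in CKO hearts (left) and control hearts (right), by the same 4 fits. Red rings mark an adjusted p under 0.05 in limma. In CKO hearts with the array set as a block, Vwf lies at 0.76 and Tie1, Kdr and Cdh5 at -0.81, -0.60 and -0.33, and in control hearts Cdh5 at -0.35 is the only ringed gene.

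Probe sets of the same gene did not always move alike. For Tie1, the brighter probe set is of a type whose probes can match a family of sequences, so its values may include related transcripts. The dimmer Tie1 probe set read 358, 370, 256, 286 and 283 in CKO hearts at 4 weeks, against 441, 360 and 383 in control hearts, and the groups overlapped. Its difference was -0.34 ± 0.20 with the block, with an adjusted p of 0.258 over all 12422 probe sets. At 2 weeks it read 1002, 622, 562 and 436 in CKO hearts, against 663, 635 and 575 in control hearts. In CKO hearts its values at 4 weeks all lay below those at 2 weeks, a Tie1 difference of -0.99 ± 0.20 without the block and an adjusted p of 0.0132. This probe set of Tie1 differed between the array sets by 0.04 ± 0.14, set 2 minus set 1, whereas the brighter one differed by 0.78 ± 0.11. With array-set means removed, the 2 Tie1 probe sets had r = 0.93 over 15 arrays.

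The dimmer Vwf probe set lay far down the intensity range, with values from 37.8 to 117.2, and its difference between CKO and control hearts at 4 weeks was -0.18 ± 0.18 with the block (adjusted p 0.527). Its r with the brighter Vwf probe set was -0.17 over the 15 arrays with array-set means removed. Array set 2 minus set 1 was -0.64 ± 0.13 for the dimmer and 0.86 ± 0.11 for the brighter Vwf probe set. Averaging the 2 Vwf probe sets gave a difference of 0.31 at 4 weeks without the block, with an adjusted p of 0.158. The higher Vwf level rests on 1 probe set.

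The dimmer Flt1 probe set read 223, 186, 763, 620 and 492 in CKO hearts at 4 weeks, against 200, 505 and 569 in control hearts. The 3 low arrays are those of array set 1. From 4 against 2 weeks in CKO hearts this Flt1 probe set differed by -0.61 within array set 1 and by 1.10 within array set 2. The 2 sets differed in this by 1.71 ± 0.27, with an adjusted p of 0.0138 over all probe sets. The 2 dimmer Emcn probe sets differed between CKO and control hearts at 4 weeks by 0.05 ± 0.11 and 0.12 ± 0.13 with the block, neither called. The middle Emcn probe set was higher in array set 2 by 1.15 ± 0.08, the largest such difference among the 14 probe sets.

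**Figure D4:**
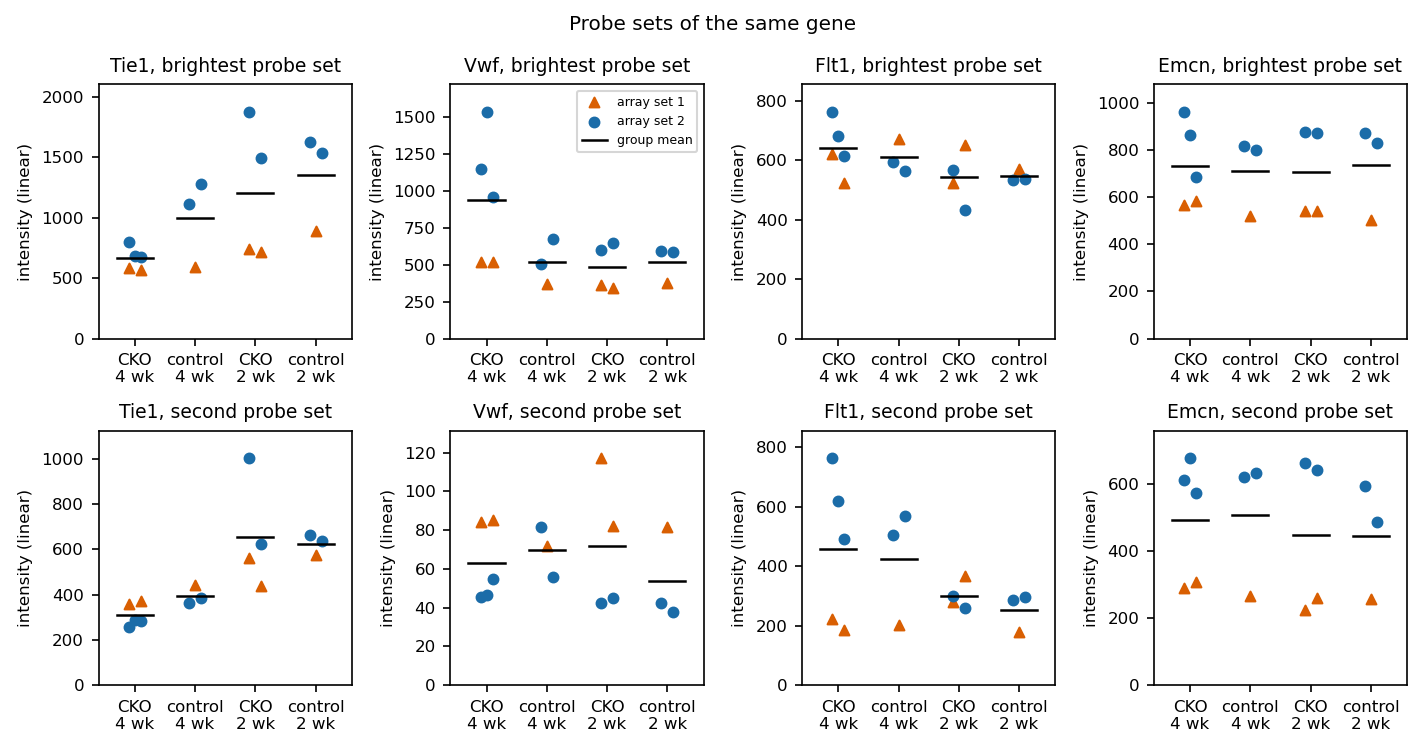
Intensity on a linear axis of the brightest (top) and next brightest (bottom) probe set of Tie1, Vwf, Flt1 and Emcn, 1 point per array, with triangles for array set 1, circles for array set 2 and bars for the group mean. The dimmer Vwf probe set runs from 37.8 to 117.2 with no higher level in CKO hearts at 4 weeks, and the dimmer Tie1 probe set is lower at 4 than at 2 weeks in both genotypes.

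The members varied in groups across the arrays. With array-set means removed, Tie1 and Kdr had r = 0.93 over 15 arrays, Kdr and Tek 0.89, Tie1 and Tek 0.84, and Cdh5 and Tie1 0.80. Eng and Vwf had r = 0.73, and Vwf and Tie1 -0.80. Emcn had its highest such r, 0.45, with Eng. Without removing the set means, Vwf and Tie1 had r = 0.05 and Vwf and Emcn 0.72, so these values depend on removing the means. All of these points share the genotype and age differences described above, and they are a description of 15 arrays.

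**Figure D5:**
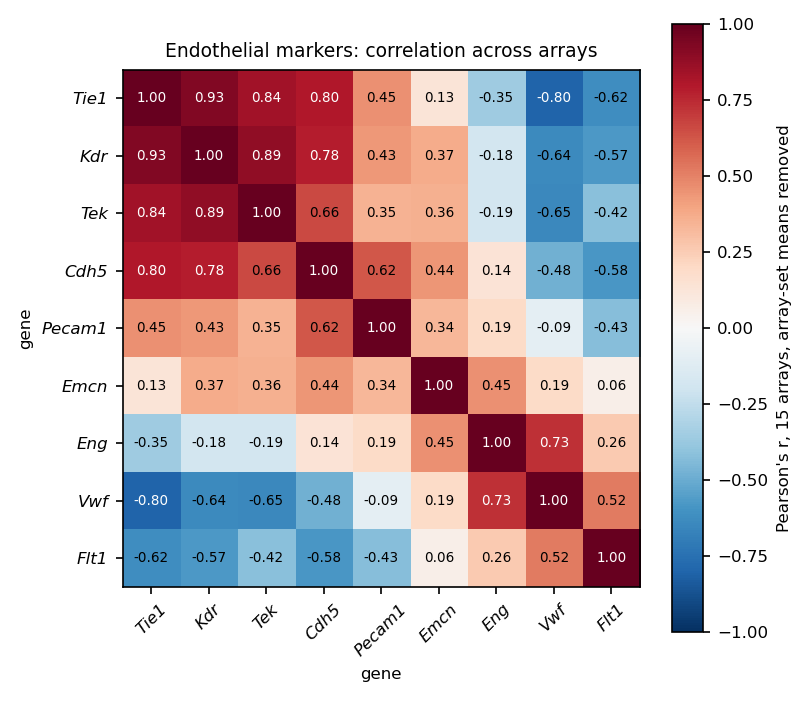
Pearson's r between the 9 genes over 15 arrays on the log2 scale, with each array set's mean removed. Tie1, Kdr, Tek and Cdh5 form a block of values from 0.66 to 0.93, Eng and Vwf have 0.73, and Vwf has -0.80 with Tie1.

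Among the 4950 tested genes, those most like each member over the 15 arrays, by r with array-set means removed, were listed with a rule of 2 per member. For Eng they were Rasa1 (0.96) and Iqgap1 (0.95), for Vwf Sidt2 (0.96) and Lrp1 (0.95), and for Tie1 Cavin2 (0.97) and Itpkb (0.97). For Kdr they were Sox4 (0.96) and Hcfc1 (0.95), for Tek Hdac2 (0.95) and Nr2f6 (0.92), and for Cdh5 Tfrc (0.95) and Cd93 (0.94). Cd93 is itself an endothelial surface gene, and Cavin2 is a caveolar coat gene abundant in endothelium. Pecam1 was most like Gip (0.91) and Sox18 (0.88), Flt1 most like Bmp6 (0.85) and Ccl6 (0.84), and Emcn most like Prss40 (0.89) and Myo6 (0.87). Some of these values depend on removing the set means: the plain r was 0.00036 for Pecam1 with Gip and -0.80 for Emcn with Prss40. Array sets, genotype and age are shared by all of these points.

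Other endothelial genes were read through lists, beside the 11.2% of all genes called without the block and the 35.5% called with it. Of 15 tested pan-endothelial genes outside the 9, 0 were called between CKO and control hearts at 4 weeks without the block, and their median difference was 0.15. With the block 3 of the 15 were called, all higher, against 35.5% of all genes, namely the adhesion gene Mcam (0.74 ± 0.21, adjusted p 0.012), the sialomucin gene Cd34 (0.70 ± 0.13, adjusted p 0.000404) and the phosphatase gene Ptprb (0.83 ± 0.21, adjusted p 0.00655), whose product acts on Tek. Of 13 tested endothelial transcription factors, 1 was called without the block, Lmo2, at -0.67 ± 0.15 (adjusted p 0.00854), and 2 were lower with it, and the median was -0.15. Of 6 Notch genes of vessels and 7 genes of activated endothelium and adhesion, 0 were called without the block, with medians of -0.0021 and 0.11. With it 1 Notch gene was higher and 1 lower, and 2 genes of activated endothelium were higher and 1 lower. Of 8 capillary and fatty acid transport genes, 3 were lower without the block, with a median of -0.35, and 1 was higher and 3 lower with it. These were Lpl (-0.67 ± 0.09, adjusted p 0.000303), Car4 (-0.70 ± 0.17, adjusted p 0.0178) and Cd36 (-0.93 ± 0.25, adjusted p 0.0266). Heart muscle makes Lpl and Cd36, so their values are not read as endothelial. The endocardial and lymphatic list had 1 tested gene, Vwf. Its dim member Npr3, a natriuretic peptide receptor of the endocardium, was at 1.34 ± 0.27 with an adjusted p of 0.00618 in the fit to all genes.

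Ligands of the member receptors were measured in the same arrays. Of 5 tested VEGF and angiopoietin genes and co-receptors, 1 was called at 4 weeks without the block, against 11.2% of all genes. It was Vegfb, a ligand of Flt1, at -0.62 ± 0.16 (adjusted p 0.0243), and the median was -0.27. In the blocked fit 3 of the 5 were lower, against 35.5% of all genes called. With the block, Vegfa, the main ligand of Kdr, was lower, at -0.44 ± 0.13 (adjusted p 0.0167), and so was its co-receptor gene Nrp1, at -0.26 ± 0.09 (adjusted p 0.0431). Around Eng, 6 of 13 tested TGF-beta and BMP genes were higher and 0 lower without the block, against 11.2% of all genes called, with a median of 0.53. In the blocked fit 8 were higher and 0 lower, against 35.5% of all genes called. The ligand genes Tgfb2 and Tgfb3 were higher by 3.27 ± 0.32 (adjusted p 2.56e-05) and 2.42 ± 0.29 (adjusted p 0.000128), and the inhibitory Smad genes Smad7 and Smad6 by 0.71 ± 0.18 (adjusted p 0.0204) and 0.60 ± 0.16 (adjusted p 0.0265). At 2 weeks 0 genes of these lists were called without the block, against 0.0202% of all genes, and 0 with it, against 0.0808%.

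Markers of some other cell types differed in the 4-week comparison. Counts here are without the block, where 11.2% of all genes were called. Of 11 tested fibroblast markers, 9 were higher and 0 lower in CKO hearts, with a median of 1.01, and the 12 measured summed to between 25127 and 32980 in CKO and between 12205 and 13845 in control hearts. Of 10 cardiomyocyte markers, 1 was higher and 6 lower, with a median of -0.35, and their sum ran from 64432 to 68382 in CKO and from 76225 to 81578 in control hearts. Of 10 tested pericyte and smooth muscle markers, 2 were higher and 1 lower, and the 11 measured summed to between 10157 and 14230 in CKO and between 9699 and 10750 in control hearts. Of 8 macrophage and 3 erythroid markers, 0 were called. With the block 35.5% of all genes were called. There 10 fibroblast markers were higher and 0 lower, and 1 cardiomyocyte marker was higher and 6 lower. Of the pericyte and smooth muscle markers 4 were higher and 1 lower, and of the 3 erythroid markers 1 was higher. These last counts cover few genes and are not read as a change of those cells. The macrophage and erythroid sums overlapped: 3223 to 6090 in CKO and 3305 to 4873 in control hearts for macrophage genes, and 7821 to 14012 in CKO and 6609 to 7864 in control hearts for erythroid genes. The 9 endothelial genes together summed to between 6977 and 9904 in CKO and between 6282 and 8218 in control hearts, which overlapped. Eng is also expressed by fibroblasts and smooth muscle, and the part of these cell types in its higher level was not tested. By Xist and Uty levels, 4 of 5 CKO arrays and 1 of 3 control arrays at 4 weeks were of female hearts, and with blocks for array set and for inferred sex the difference of Eng was 0.51 ± 0.09 with an adjusted p of 0.00043.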

How the data were processed

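RNA of 15 heart samples was hybridised to one-colour arrays of the Affymetrix type. The authors deposited linear intensities, with 1 value for every probe set of an array, and their software and scaling are not stated in the labels. For this work they were turned into log2(intensity + 16), a scale on which the deposited intensities of dim genes show smaller changes. The ratio of the highest to the lowest array median was 1.248, under the limit of 1.25, so the deposited scaling was kept. A single gene symbol was annotated for 10833 probe sets, 396 had more than that and 1193 had none. Each of 8251 genes was represented by its brightest single-symbol probe set, and the dimmest 40% of genes were left out, which left 4950. The number of arrays limits the precision. No array repeated another, since any pair shared at most 0.0322% of values above the floor of 0.95.

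Group means over all 15 arrays were fitted with limma 3.58.1 (R 4.3.3). The two-sided moderated test pooled the spread with a trend on intensity, and p-values were adjusted by Benjamini-Hochberg across 4950 genes. Values of dim genes came from the fit to 8251 genes, and those of further probe sets from the fit to 12422 probe sets. The 5 comparisons were CKO against control hearts at each age, the difference of these effects, and 4 against 2 weeks in each genotype. The fits were tested on simulated data. The array sets were found by clustering the arrays on their correlation, and the fit within array set 1 has 1 control array at each age, whose spread is taken from the other groups.

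The members and the 15 gene lists (190 genes, 156 with a probe set, 117 tested) were chosen with earlier results of these data known. Named genes are all members, Mnat1, the genes of each list called in a comparison (up to 4 with the smallest p) and the 2 genes most like each member. In the Results, genes of the lists are named for the 4-week comparison only, and the other observations name some from the age comparisons. The genes called with the block, Npr3, and the promoters shown were picked after their values were seen. Promoters came from a RefSeq table of GRCm38.p6.

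Replicate numbers in the labels do not say that arrays share a mouse or a day. Same-numbered arrays had correlations of their deviations from the group mean of 0.83, -0.55 and 0.58 between CKO and control hearts at 4 weeks, which does not pair them. At 2 weeks these were 0.81, 0.67 and 0.89, which meets the limit of 0.1 for pairing, and the pairs there coincide with the array sets. The alternatives were quantile and median scaling, pseudocounts of 1 and 64, no limit on dim genes, mean of probe sets, all probe sets, the blocks, array weights and leaving out each array.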

Additional observations from a re-analysis of the deposited data

Results flagged for a closer look

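The effect of the genotype differed between the ages for Eng and Vwf in the fit with the array set as a block, by a test of the difference itself. The effect on Eng at 4 weeks exceeded that at 2 weeks by 0.498 ± 0.124 on the log2 scale, with an adjusted p of 0.0159 in limma. Eng was 0.56 ± 0.09 higher in CKO than in control hearts at 4 weeks and 0.06 ± 0.09 at 2 weeks. The effect on Vwf exceeded it by 0.776 ± 0.218, with an adjusted p of 0.0294. Vwf was 0.81 ± 0.15 higher in CKO hearts at 4 weeks and 0.03 ± 0.16 at 2 weeks. Without the block neither passed, with adjusted p-values of 0.318 for Eng and 0.737 for Vwf. With inferred sex added to the block, Eng was the only member called. Of the 15 removals of a single array in the fit with the block, 2 lost the call of Eng and 4 that of Vwf. The Vwf values are those of the brighter of its 2 probe sets. In the groups of 4 or 5 arrays, 28 sets of values of the member probe sets were checked for an array far from the others, and none was found by Dixon's limits of 0.829 for 4 and 0.71 for 5 arrays.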

How the results depend on the processing

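Counts below are members called in limma. For CKO against control hearts at 4 weeks, 1 of 8 was called in the reported fit, and 1 as well with quantile normalization, either pseudocount, no limit on dim genes, the mean of probe sets or all probe sets. Median scaling and the replicate block gave 0, and leaving out 1 array gave 0 to 1. Array weights gave 2, against 22.9% of all genes. The array set as a block (alone, with quantile normalization or with inferred sex) gave 3, against 31.6% to 35.5% of all genes. Array set 2 alone gave 4, against 29.0%. Array set 1 alone is not counted here, as it holds 1 control array at each age. At 2 weeks every alternative gave 0 of the 8, and dim Pecam1 was called with array weights in the fit to all genes (-0.48, adjusted p 0.0454). For the difference of effects, where 0 were called, the block gave 2 (also with quantile normalization) and array weights 2. The block with inferred sex gave 1 (Eng) and array set 2 alone 1 (Tie1). These fits called 7.23% to 13.1% of all genes. For 4 against 2 weeks in control hearts, 0 in the reported fit became 1 (Cdh5) in 4 alternatives. They were the block, the block with quantile normalization, the block with inferred sex, and array weights. These fits called 5.92% to 7.13% of all genes. For these ages in CKO hearts, 0 became 1 with quantile normalization (Cdh5), against 7.27% of all genes. It became 1 with the mean of probe sets (Tie1), against 6.22%. Array set 2 gave 4, against 18.3%. The block alone, with quantile normalization or with inferred sex gave 4, against 22.6% to 26.3%. Array weights gave 2 (Eng, Vwf), against 19.9%. Leaving out arrays without the block gave 0 to 0 in these last 3 comparisons. With the block, chosen after seeing the data for leaving out arrays, it gave 2 to 3 at 4 weeks, 0 to 2 for the difference of effects, 0 in control hearts and 3 to 4 in CKO hearts. Over all tested genes, calls at 4 weeks numbered 554 in the reported fit, 1756 with the block, 381 with median scaling, 316 with the replicate block and 1133 with array weights, and the share of higher calls was 58.8% as reported, 43.9% with quantile normalization and 44.4% with median scaling. Eng, the member called without the block at 4 weeks, kept its sign throughout. Kdr, called with the block in CKO hearts and in array set 2 at 4 weeks, was at 0.07 and 0.01 in array set 1. Tie1, called in array set 2 for the difference of effects, was at 0.24 in array set 1 and 0.15 with array weights. The cause of these differences was not tested. At 4 weeks the replicate numbers share only a number, and at 2 weeks the pairing changed no call (0 of 8).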

Other observations

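In CKO hearts, some other endothelial genes differed between 4 and 2 weeks, where 6.57% of all genes were called without the block and 25.1% with it. Among vessel Notch genes, Hey1, a Notch target, was lower, at -0.66 ± 0.15, with an adjusted p of 0.0138 in limma, 1 of 6 tested genes of that list. Among endothelial transcription factors, Tcf15, a factor of heart capillary endothelium that is also on the list of capillary and fatty acid transport genes, was lower, at -0.77 ± 0.21 with an adjusted p of 0.0449, 1 of 13 tested, near the share over all genes. With the array set as a block, 4 of the 6 Notch genes and 4 of the 13 transcription factors were lower, which for the transcription factors is near that share too. Of these, Sox7 (-0.79 ± 0.21, adjusted p 0.0113) and Sox18 (-0.82 ± 0.24, adjusted p 0.0179) were called with the block and not without it. Control hearts had similar differences with the block for Sox7 (-0.78 ± 0.26, adjusted p 0.0964) and Sox18 (-0.82 ± 0.29, adjusted p 0.119), neither called. Hey1 was called lower there too, at -0.51 ± 0.14 (adjusted p 0.0462), 1 of 2 Notch genes called, against 5.92% of all genes. Tcf15 was at -0.40 ± 0.22 (adjusted p 0.354). These genes are thus not read as particular to CKO hearts. In control hearts Lpl, which heart muscle makes, was higher at 4 than at 2 weeks by 0.64 ± 0.10, with an adjusted p of 0.0112. It was 1 of 8 tested genes of its list, against 0.727% of all genes.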
